A study of Mus musculus with 9 samples.

Results

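The genes described here are 36 genes of the lysosome, namely its proteases, glycosidases, sulfatases, lipid enzymes, membrane proteins and proton pump subunits, with the transcription factors Tfeb, Tfe3 and Mitf. They were chosen by name. For each gene the probe set annotated with that symbol alone was taken, and for Mitf, which had 2, the one with the higher mean over the 9 arrays. All 36 were measured, among 19938 genes with such a probe set. No filter on low values was applied, so every member entered the tests. The cells were BaF3, a mouse haematopoietic line that depends on interleukin-3, infected with a retrovirus for 1 of 3 fusion tyrosine kinases and then sorted on EGFP fluorescence. The fusions were BCR-ABL (in its p210 form, per the series' design text), BCR-RET and FGFR1OP-RET, with 3 Affymetrix MouseGene 1.0 ST arrays for each and no further genotype, treatment or time in the labels. All 3 groups carry a fusion kinase and EGFP, cells without a fusion were not analysed here, and the labels do not say whether interleukin-3 was in the medium. Whether a group's 3 arrays stem from independent infections or cultures is not stated either. The p-values therefore reflect only how far these arrays scatter, and that scatter may be technical.

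Lysosomes are acidic organelles in which hydrolases break down proteins, glycans, nucleic acids and lipids delivered by endocytosis and autophagy. A proton pump, the V-ATPase, keeps their lumen acidic. TFEB, TFE3 and MITF bind E-box sequences (the CLEAR element) in the promoters of many lysosomal genes, and they are held in the cytoplasm when the kinase mTORC1 is active. Macrophages and other phagocytes are rich in lysosomes, and the series title links the RET fusions to monocytic differentiation, so the lysosomal genes bear on the question of how the 3 kinases differ along that line.

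The promoters of several members are shown first because the E-box is the sequence feature by which lysosomal genes are known to be recognised. RefSeq windows of assembly GRCm38.p6, from 250 bases before to 50 after the start of the gene, were at hand for 30 of the 36 members. The core CACGTG, read on both strands, was found in the windows of 12 of these 30 (40%), against 8.09% of 27025 genes with a window. The longer TCACGTGA, which contains the core, was found in 6 members (20%), against 1.12% of genes. The CLEAR palindrome, which adds a G before and a C after it, was found among the members in Cln3 (3.33% of members, against 0.37% of genes). The 6 with TCACGTGA were Ctsa, Ctsd, Gla, Mcoln1, Cln3 and Atp6v0d1. Stretches of 80 bases that end before the start of the gene are given below 5′ to 3′ for those whose match lies there, and for Neu1. Capitals mark CACGTG, extended to TCACGTGA where the flanking bases allow it.
Ctsa: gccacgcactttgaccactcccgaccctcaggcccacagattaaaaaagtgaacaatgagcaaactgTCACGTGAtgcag
Ctsd: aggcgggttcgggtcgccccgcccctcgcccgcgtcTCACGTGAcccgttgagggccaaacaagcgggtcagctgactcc
Gla: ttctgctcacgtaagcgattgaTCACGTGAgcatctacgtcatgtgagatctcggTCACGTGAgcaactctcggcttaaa
Mcoln1: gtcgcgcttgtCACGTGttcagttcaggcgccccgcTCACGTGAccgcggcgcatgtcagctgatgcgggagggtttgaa
Cln3: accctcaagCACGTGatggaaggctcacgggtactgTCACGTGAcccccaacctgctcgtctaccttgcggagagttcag
Neu1: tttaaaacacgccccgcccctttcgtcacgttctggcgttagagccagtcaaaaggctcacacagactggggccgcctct
They lie at chr2:164833693-164833772 (plus strand), chr7:142387883-142387962 (minus strand), chrX:134601176-134601255 (minus strand), chr8:3500437-3500516 (plus strand), chr7:126583315-126583394 (minus strand) and chr17:34931173-34931252 (plus strand), in the same order. Gla has 2 copies of TCACGTGA in its stretch, and Mcoln1 and Cln3 each have a further CACGTG upstream. Neu1 has no match in its window, which says only that these letters are not there.

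Values are log2 RMA values, on which a difference of 1 is a doubling. They are compared between groups for the same probe set and not between genes, because probes differ in brightness. Over all genes, deviations from the group mean were shared by arrays of the same replicate number in the titles. The correlations of the deviations were 0.617, 0.155 and 0.367 for numbers 1, 2 and 3 between BCR-RET and BCR-ABL arrays. FGFR1OP-RET replicate 2 stood apart, with r of -0.128 against BCR-ABL replicate 2 and -0.152 against BCR-RET replicate 2, while the other FGFR1OP-RET arrays had 0.382 to 0.498. Markers of the line were read as a check of the label. The receptor genes Il3ra and Csf2rb had group means of 10.34, 10.39 and 10.52, and of 12.03, 12.75 and 12.72 (BCR-ABL, BCR-RET and FGFR1OP-RET, the order used throughout), and Csf2rb2 of 11.18, 12.09 and 11.74. Csf2rb and Csf2rb2, 2 of these 3 receptor genes, were called higher in both RET groups than in BCR-ABL, by 0.72 and 0.90 in BCR-RET (limma adjusted p = 0.00819 and 0.00278) and by 0.69 and 0.56 in FGFR1OP-RET (0.00649 and 0.0236). Their part in the differences of the lysosomal genes was not tested. Of 10 measured B lymphoid genes, Cd79a, Pax5 and Ebf1 had group means between 6.002 and 7.581, and Cd79b between 9.64 and 9.87. Igll1, Vpreb1, Rag1, Rag2 and Blnk lay between 5.306 and 7.851. Ptprc had means of 11.68, 11.48 and 11.84. It was called lower in BCR-RET than in FGFR1OP-RET (-0.36, limma adjusted p = 0.0182), where 0.853% of all genes were called lower. Detection calls were not used here, so presence or absence is not read from these values.

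Few of the lysosomal genes passed a test between fusions. Neu1 rose in FGFR1OP-RET cells against BCR-ABL cells, Mcoln1 was lower in BCR-RET cells than in FGFR1OP-RET cells, and no member passed between BCR-RET and BCR-ABL. The test was limma's, with adjustment over all 19938 genes and a threshold of 0.05 on the adjusted p. In FGFR1OP-RET against BCR-ABL 1 of 36 members was called, where 1.02% of all genes were. In BCR-RET against FGFR1OP-RET 1 of 36 was called against 1.33% of all genes. In BCR-RET against BCR-ABL 0 of 36 was called against 0.587% (1.82% with the replicate number as a block, where the count of members was again 0). At an unadjusted p under 0.05 the members counted 1 higher and 1 lower in that comparison, 6 higher and none lower in FGFR1OP-RET against BCR-ABL, and 10 lower and none higher in BCR-RET against FGFR1OP-RET. Over all genes these unadjusted shares were 7.39% higher and 4% lower, 5.5% and 4.24%, and 8.37% and 6.5%, in the same order. The 3 comparisons share groups and are not independent of each other.

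**Figure D1:**
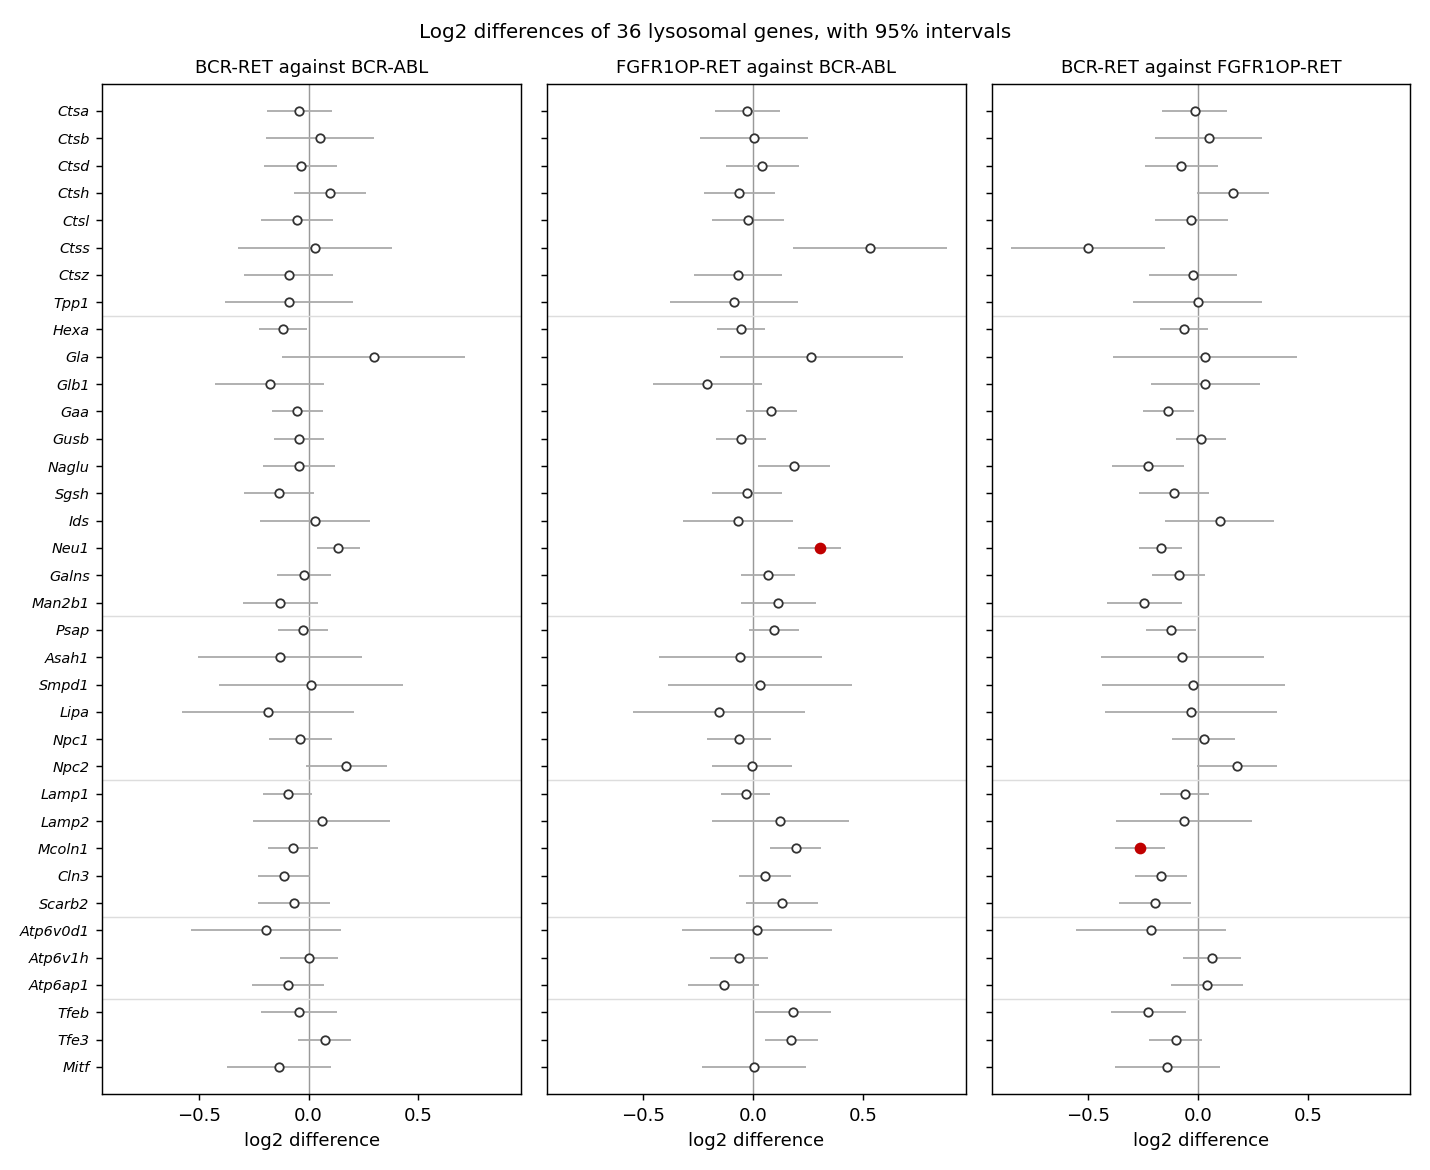
Log2 differences of the 36 members in the 3 comparisons (horizontal axis, log2), with 95% intervals from limma that are not adjusted for the number of genes; genes are grouped by role, and filled red points passed an adjusted p of 0.05. Neu1 (0.30) and Mcoln1 (-0.26) are the filled points, Ctss lies farthest from 0 (0.53 and -0.50) with a wide interval, and 35 or 36 of 36 members lie within 0.5 of 0 in every panel.

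Some monocyte, macrophage and granulocyte markers moved with the fusions. Of 10 mast cell and basophil markers, 0 were called in each of the 3 comparisons. Of 10 B lymphoid markers 1 was called, Ptprc, which was lower in BCR-RET than in FGFR1OP-RET. In FGFR1OP-RET against BCR-ABL 3 of 14 monocyte and macrophage markers were called higher and 0 lower, and 4 of 11 granulocyte markers higher and 0 lower, where 0.787% of all genes were called higher and 0.231% lower. The 3 were Cd14, a lipopolysaccharide co-receptor (1.06, limma adjusted p = 0.0146), Mpeg1, a pore-forming protein of macrophages (1.01, 0.0106), and the Fc receptor gene Fcgr1 (0.57, 0.0351). The 4 were the granule genes Mpo (1.55), Mmp8 (1.33) and Prtn3 (1.27), and S100a9 (0.96). BCR-RET against FGFR1OP-RET, in which Mcoln1 was called, had 1 of the 14 higher (Cybb, 0.73) and 2 lower (Cd14, -1.21, and Mpeg1, -1.16), and 0 of the 11 higher and 2 lower (Mmp9, -1.44, and Prtn3, -0.65), against 0.476% and 0.853% of all genes. In BCR-RET against BCR-ABL 1 of the 14 was called higher (Cybb, a subunit of the phagocyte oxidase, 0.99, adjusted p = 0.0176) and 0 of the 11, against 0.371% of all genes. At an unadjusted p under 0.05, 5 of the 11 were higher and 1 lower there, against 7.39% and 4% of all genes. With the replicate number as a block the 0 of the 11 called became 3 in that comparison. Ctsg (0.77), Mpo (0.53) and Prtn3 (0.62) were higher, at adjusted p of 0.000264, 0.0104 and 0.000443. Under the block 1.19% of all genes were called higher there. The summed log2 value of the 14 ran from 112.84 to 113.03 on BCR-ABL arrays, 115.49 to 116.20 on BCR-RET arrays and 116.15 to 120.46 on FGFR1OP-RET arrays. That of the 11 ran from 109.23 to 112.70, 114.17 to 118.25 and 117.82 to 122.88. Of the other monocyte and macrophage markers, the defining genes Csf1r (7.07, 7.19 and 7.09), Adgre1 (9.45, 9.72 and 9.56) and Mertk (6.72, 6.93 and 6.71) did not pass in any comparison. RMA values have no true 0. In bulk RNA a change in the share of cells of a type and a change in RNA per cell cannot be told apart, and the part of these markers in the differences of Neu1, Mcoln1 and the other lysosomal genes was not tested.

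Neu1 (probe set 10444578) encodes the lysosomal sialidase, which removes terminal sialic acids from glycoproteins and glycolipids. It was at 9.16, 9.15 and 9.12 in BCR-ABL cells, 9.31, 9.24 and 9.28 in BCR-RET cells and 9.44, 9.47 and 9.43 in FGFR1OP-RET cells. Every FGFR1OP-RET value was above every BCR-RET value, and every BCR-RET value above every BCR-ABL value. The group means were 9.14 ± 0.02, 9.28 ± 0.03 and 9.45 ± 0.02 (SD, n = 3). Neu1 rose in FGFR1OP-RET against BCR-ABL by 0.30, a factor of 1.23 (SE 0.04, limma adjusted p = 0.0115). The adjusted p rose to 0.0669 and 0.0597 when BCR-ABL replicate 2 or 3 was left out, and to 0.113 without all 3 arrays numbered 1. The difference itself lay between 0.29 and 0.31 in these fits and without any other single array, and was 0.28 with the arrays centred on their medians. BCR-RET cells lay between the other groups, 0.13 above BCR-ABL (adjusted p = 0.298) and 0.17 below FGFR1OP-RET (adjusted p = 0.122), and neither difference passed. In the lysosome the sialidase works in a complex with cathepsin A and beta-galactosidase. Their genes Ctsa and Glb1 had means of 11.78, 11.73 and 11.75, and of 11.26, 11.08 and 11.05, and no difference passed (lowest adjusted p 0.814 and 0.558).

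Mcoln1 (probe set 10569771) encodes the cation channel TRPML1, which releases calcium from lysosomes and acts upstream of TFEB through calcineurin. Its values were 11.01, 10.93 and 10.95 in BCR-ABL cells, 10.91, 10.84 and 10.93 in BCR-RET cells and 11.21, 11.15 and 11.11 in FGFR1OP-RET cells. The 3 FGFR1OP-RET arrays were the 3 highest of the 9, and BCR-RET arrays all lay just below BCR-ABL arrays. Mcoln1 was lower in BCR-RET (10.89 ± 0.05) than in FGFR1OP-RET (11.16 ± 0.05), by a log2 difference of -0.26 (SE 0.05, n = 3, limma adjusted p = 0.0463). This call sat at the threshold and ended whichever array was left out, with adjusted p between 0.0582 and 0.147, and also with an intensity trend in the variance model (0.0779) or with only the 2 groups in the fit (0.155). Its direction was kept in all of these. Against BCR-ABL, Mcoln1 was 0.19 higher in FGFR1OP-RET (adjusted p = 0.173), which did not pass.

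The 3 transcription factors are regulators of lysosomal genes. Tfeb (probe set 10445729) was at 8.80, 8.76 and 8.60 in BCR-ABL cells, 8.78, 8.68 and 8.57 in BCR-RET cells and 8.96, 8.95 and 8.80 in FGFR1OP-RET cells. All 3 FGFR1OP-RET arrays exceeded the BCR-RET arrays, the closest pair being 8.80 and 8.78, and overlapped with BCR-ABL. The differences were -0.23 for BCR-RET against FGFR1OP-RET (95% interval -0.40 to -0.05, adjusted p = 0.228) and 0.18 for FGFR1OP-RET against BCR-ABL (adjusted p = 0.485). Tfe3 (probe set 10598409) was at 9.94, 9.97 and 9.97 in BCR-ABL cells, 10.06, 10.06 and 9.97 in BCR-RET cells and 10.18, 10.04 and 10.18 in FGFR1OP-RET cells, and both RET groups lay above BCR-ABL, for BCR-RET narrowly (9.973 against 9.972). Its difference was 0.17 in FGFR1OP-RET (95% interval 0.05 to 0.30, adjusted p = 0.277) and 0.07 in BCR-RET (adjusted p = 0.617). Mitf (probe set 10540248), best known from mast cells, osteoclasts and melanocytes, was at 8.74, 8.73 and 8.80 in BCR-ABL cells, 8.57, 8.63 and 8.67 in BCR-RET cells and 8.68, 8.56 and 9.04 in FGFR1OP-RET cells. FGFR1OP-RET replicate 3 was the highest of the 9 and FGFR1OP-RET replicate 2 the lowest, and no difference passed (lowest adjusted p 0.581). The second Mitf probe set had means of 3.65, 3.47 and 3.73.

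**Figure D2:**
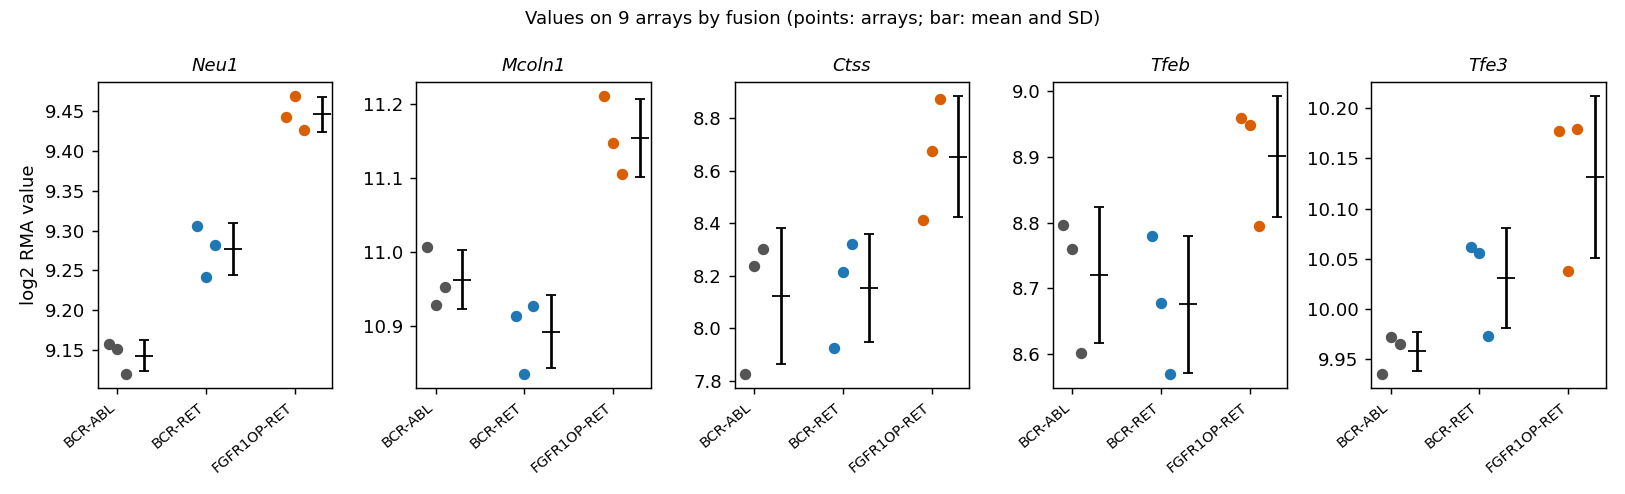
Log2 RMA values of Neu1, Mcoln1, Ctss, Tfeb and Tfe3 (vertical axes, each with its own range that does not start at 0) on the 3 arrays of each fusion; points are arrays in the order of their numbers, bars give the mean and SD of 3 arrays. FGFR1OP-RET points are above all BCR-ABL and BCR-RET points for Neu1, Mcoln1 and Ctss, and overlap with another group for Tfeb and Tfe3.

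Without the replicate number as a block, none of the 8 proteases passed between fusions. Ctss had the widest distance between group means of all 36 members. Ctss (probe set 10494271), the cysteine protease cathepsin S that trims the invariant chain of MHC class II, was at 7.83, 8.24 and 8.30 in BCR-ABL cells, 7.92, 8.21 and 8.32 in BCR-RET cells and 8.41, 8.68 and 8.87 in FGFR1OP-RET cells. Every FGFR1OP-RET array exceeded every other array, and within each group the array numbered 1 was the lowest. The difference was 0.53 against BCR-ABL (95% interval 0.18 to 0.88, adjusted p = 0.24) and -0.50 for BCR-RET against FGFR1OP-RET (interval -0.85 to -0.15, adjusted p = 0.192), with an SE of 0.16 that is large beside the members' median SE of 0.07. With the block the SE was 0.05, and the limma adjusted p were 8.14e-04 and 0.00114. The numbers were not read as pairs in these comparisons. Ctsd (probe set 10569319), the main aspartic protease, was at 11.86, 11.85 and 11.85 in BCR-ABL cells, 11.85, 11.83 and 11.77 in BCR-RET cells and 11.85, 12.07 and 11.76 in FGFR1OP-RET cells, close to level but for FGFR1OP-RET replicate 2. The cysteine proteases Ctsb, Ctsl, Ctsz and Ctsh, the carboxypeptidase Ctsa and the tripeptidyl peptidase Tpp1 had differences between -0.09 and 0.16 in the 3 comparisons. Ctsh, with means of 6.62, 6.72 and 6.56, was at the upper end, and its BCR-RET and FGFR1OP-RET arrays did not overlap (adjusted p = 0.345).

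Of the 11 glycosidases and sulfatases, Neu1 was the member that passed without the block. Man2b1 (probe set 10573583), the acid alpha-mannosidase, was at 10.86, 11.05 and 11.05 in BCR-ABL cells, 10.80, 10.95 and 10.82 in BCR-RET cells and 10.99, 11.13 and 11.19 in FGFR1OP-RET cells. BCR-RET lay below FGFR1OP-RET without overlap, at a difference of -0.24 (adjusted p = 0.194). Naglu (probe set 10381211), which removes N-acetylglucosamine from heparan sulfate, was at 9.58, 9.59 and 9.59 in BCR-ABL cells, 9.36, 9.64 and 9.63 in BCR-RET cells and 9.80, 9.77 and 9.76 in FGFR1OP-RET cells. Its FGFR1OP-RET arrays were the 3 highest, 0.18 above BCR-ABL (adjusted p = 0.437), and BCR-RET replicate 1 was the lowest of the 9. Glb1 (probe set 10589889), the beta-galactosidase, was at 11.06, 11.36 and 11.36 in BCR-ABL cells, 10.91, 11.24 and 11.11 in BCR-RET cells and 10.93, 11.02 and 11.20 in FGFR1OP-RET cells, with the number 1 array lowest in every group. Gla (probe set 10606714), alpha-galactosidase A, spanned 9.74, 10.18 and 10.30 in BCR-ABL cells, 10.10, 10.42 and 10.59 in BCR-RET cells and 10.11, 10.22 and 10.67 in FGFR1OP-RET cells. Its RET groups had means 0.30 and 0.26 above BCR-ABL, with overlap and intervals from below 0 (-0.12 to 0.71 and -0.15 to 0.68). The other 6 of this role were Hexa, Gaa and Gusb, which cleave gangliosides, glycogen and glucuronides, and the sulfatases Sgsh, Ids and Galns. Their differences ran from -0.14 (Sgsh, BCR-RET against BCR-ABL) to 0.10 (Ids, BCR-RET against FGFR1OP-RET), and none passed.

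No lipid enzyme or cofactor passed between fusions. Lipa, the acid lipase that hydrolyses cholesteryl esters and triglycerides, had means of 10.81, 10.62 and 10.65, and Smpd1, the acid sphingomyelinase, of 10.77, 10.78 and 10.80. Asah1, the acid ceramidase, had 10.56, 10.43 and 10.50. Psap, the precursor of the saposins that present sphingolipids to their enzymes, had 12.41, 12.39 and 12.51, with its FGFR1OP-RET arrays above all others (adjusted p = 0.314 against BCR-RET). The cholesterol exporters Npc1 and Npc2 had 10.70, 10.66 and 10.63, and 10.33, 10.50 and 10.32. The difference of Npc2 was 0.18 for BCR-RET against FGFR1OP-RET and 0.17 for BCR-RET against BCR-ABL (adjusted p = 0.346 and 0.463).

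Lamp1 and Lamp2, the abundant glycoproteins of the lysosomal membrane, had group means that differed by at most 0.12. Lamp1 (probe set 10570344) was at 12.25, 12.35 and 12.30 in BCR-ABL cells, 12.20, 12.27 and 12.15 in BCR-RET cells and 12.27, 12.27 and 12.27 in FGFR1OP-RET cells. The largest of its differences was -0.10, for BCR-RET against BCR-ABL, with a 95% interval of -0.21 to 0.02. Lamp2 (probe set 10604187), which also serves chaperone-mediated autophagy, was at 11.64, 11.93 and 11.98 in BCR-ABL cells, 11.71, 12.00 and 12.03 in BCR-RET cells and 11.79, 11.88 and 12.25 in FGFR1OP-RET cells. Its intervals were wider (-0.19 to 0.43 for FGFR1OP-RET against BCR-ABL), and its means by replicate number spanned 0.38, against 0.12 between fusions. Scarb2 (probe set 10531437), the sorting receptor of glucocerebrosidase, was at 9.54, 9.77 and 9.76 in BCR-ABL cells, 9.61, 9.57 and 9.70 in BCR-RET cells and 9.89, 9.74 and 9.84 in FGFR1OP-RET cells, with FGFR1OP-RET above BCR-RET on all arrays (-0.20 for BCR-RET against FGFR1OP-RET, adjusted p = 0.262). Cln3, the membrane protein lost in juvenile Batten disease, had means of 10.38, 10.27 and 10.44, and BCR-RET arrays lay below those of both other groups (adjusted p = 0.463 and 0.197). All 5 membrane protein genes had a difference below 0 in BCR-RET against FGFR1OP-RET.

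Of the proton pump, Atp6v0d1 (probe set 10581289), a subunit of the membrane sector, was at 11.05, 11.09 and 11.25 in BCR-ABL cells, 10.64, 11.12 and 11.03 in BCR-RET cells and 10.87, 11.13 and 11.43 in FGFR1OP-RET cells. BCR-RET replicate 1 was the lowest and FGFR1OP-RET replicate 3 the highest, and no difference passed. Atp6v1h, a subunit of the cytosolic sector, had means of 10.58, 10.58 and 10.51, and the accessory subunit gene Atp6ap1 12.07, 11.98 and 11.93.

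Small differences lay mostly below 0 in both comparisons of BCR-RET. In BCR-RET against FGFR1OP-RET, 26 of 36 members had a difference below 0, with a median of -0.06, where all genes had 60.5% above 0 and a median of 0.03. The ranges of the 2 groups were apart for 13 members, with 12 lower and 1 higher, against 6.49% of all genes lower and 8.77% higher. In BCR-RET against BCR-ABL, 25 of 36 were below 0 (median -0.04), where 60.7% of all genes were above 0 (median 0.03), and 5 were apart lower and 2 higher, against 5.9% and 10.7%. In FGFR1OP-RET against BCR-ABL, 19 were above 0 and 17 below (50.8% of all genes above, median 0.00 in both), and 7 were apart higher and none lower, against 6.94% and 5.13%. With each array centred on its median over the tested genes, the members' median was -0.10 in BCR-RET against BCR-ABL (-0.03 in all genes). There 31 of 36 were below 0, where 35% of all genes were above 0. It was -0.02 in FGFR1OP-RET against BCR-ABL (-0.02 in all genes), with 20 below 0 and 39.3% of all genes above 0. For BCR-RET relative to FGFR1OP-RET it was -0.10 (-0.01 in all genes), with 30 below 0 and 45% of all genes above 0. The centring thus also moved the shares over all genes. These counts describe the list and were not tested.

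Other genes of the pathway were read from 6 lists of related genes, with 140 measured genes outside the members. In FGFR1OP-RET against BCR-ABL 2 of the 140 rose and 1 fell, against 0.787% and 0.231% of all genes. In BCR-RET against FGFR1OP-RET 2 were higher and 2 lower, against 0.476% and 0.853%. In BCR-RET against BCR-ABL none was higher and 1 lower, against 0.371% and 0.216%. Blocking on the replicate number added 1 call to the last comparison, the proton pump subunit gene Atp6v1f (0.35, adjusted p = 0.00939). Under the block 1.19% of all genes were called higher there and 0.627% lower. In FGFR1OP-RET against BCR-ABL the block gave 7 of the 140 higher and 3 lower, against 2.01% and 0.878% of all genes. In BCR-RET against FGFR1OP-RET it gave 9 higher and 12 lower, against 2.81% and 2.88%. Without the block the calls were in 5 genes. Slc15a3, a proton-coupled transporter of histidine and peptides in endolysosomes, had means of 8.58 ± 0.16, 8.54 ± 0.21 and 9.65 ± 0.21 (SD, n = 3), 1.08 above BCR-ABL in FGFR1OP-RET (SE 0.13, limma adjusted p = 0.00595) and -1.11 in BCR-RET against FGFR1OP-RET (adjusted p = 0.00591). Tcirg1, the a3 subunit of the proton pump's membrane sector, had 11.19 ± 0.04, 11.22 ± 0.04 and 11.68 ± 0.09, 0.49 above BCR-ABL (SE 0.06, adjusted p = 0.00446) and -0.46 in BCR-RET against FGFR1OP-RET (adjusted p = 0.00604). Both genes were thus high in FGFR1OP-RET cells and near level in the other groups, and leaving out any single array ended none of these 4 calls.

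The other 3 genes were less stable. Mcoln2, a channel of the same family as Mcoln1, went the other way, with 8.81 ± 0.08, 8.71 ± 0.01 and 8.39 ± 0.10. It was -0.42 in FGFR1OP-RET against BCR-ABL (adjusted p = 0.016), a call that ended without BCR-ABL replicate 2 or 3 or FGFR1OP-RET replicate 2 or 3 (0.0525 to 0.0871). It was 0.33 in BCR-RET against FGFR1OP-RET (adjusted p = 0.048), a call that only leaving out FGFR1OP-RET replicate 1 kept (highest 0.158). The endolysosomal channel gene Tpcn2 was lower in BCR-RET cells (9.77 ± 0.09) than in BCR-ABL cells (10.30 ± 0.03), at a difference of -0.52 (adjusted p = 0.0461). That call held without FGFR1OP-RET replicate 3 and ended without any other array (highest 0.192). Aga, which cleaves the asparagine link of glycoproteins, was 0.28 higher in BCR-RET than in FGFR1OP-RET (adjusted p = 0.0382), a call that held without BCR-RET replicate 1 and ended without any other array (highest 0.144). Without the block, none of the 20 enzyme sorting genes, the 20 genes of TFEB regulation and nutrient sensing or the 25 autophagy genes passed in any of the 3 comparisons. With the block, 1 enzyme sorting gene was called higher in FGFR1OP-RET against BCR-ABL. In BCR-RET against FGFR1OP-RET the block called 3 enzyme sorting genes lower, 1 gene of TFEB regulation and nutrient sensing lower and 1 autophagy gene higher. At an unadjusted p under 0.05 without the block, the 3 lists had 0, 1 and 3 genes higher and 4, 3 and 2 lower in BCR-RET against FGFR1OP-RET. All genes had 8.37% and 6.5% there. In BCR-RET against BCR-ABL they had 0, 2 and 0 higher and 2, 2 and 2 lower, against 7.39% and 4%. In FGFR1OP-RET against BCR-ABL they had 3, 1 and 2 higher and 0, 1 and 1 lower, against 5.5% and 4.24%.

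The lysosomal genes also differed by the replicate number in the titles. On the array numbered 1, 8, 10 and 9 of 36 members lay above the mean of their group in BCR-ABL, BCR-RET and FGFR1OP-RET. Of all genes 50.4%, 53.4% and 40.6% lay above it on these arrays. A limma F test of the replicate number, with the fusion as a covariate, called 5 of 36 members (13.9%), where 4.45% of all genes were called, and 16 of 36 had an unadjusted p under 0.05 against 19.1% of all genes. The 5 were Ctss (adjusted p = 0.00874), Lipa (0.0114), Gla (0.0132), Lamp2 (0.0384) and Ctsb (0.0394). The share over all genes includes dim genes. With only genes of a log2 mean of at least 7, 6 of 35 members were called. The count over all genes was then 1384, from fewer genes tested, against 887 without that filter. The share over all genes was thus above 4.45% under the filter. Its exact value is not given here, so the members' count is not set against it. What the numbers stand for is not given in the labels, which call them neither a batch nor a day. The span between the means of the 3 numbers exceeded the span between the means of the 3 fusions in 21 of 36 members (58.3%), against 44.2% of all genes.

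All 5 genes were lowest on number 1. Lipa (probe set 10467139) was at 10.50, 10.32 and 10.47 on the arrays numbered 1, 10.85, 10.72 and 10.58 on the arrays numbered 2 and 11.07, 10.83 and 10.90 on the arrays numbered 3, in the order BCR-ABL, BCR-RET and FGFR1OP-RET. Gla, whose values are given above by fusion, had means of 9.98, 10.28 and 10.52 on numbers 1, 2 and 3, and on every number its BCR-ABL array was the lowest of the 3. The means of Lamp2 were 11.71, 11.94 and 12.09. Ctsb (probe set 10415844), a cysteine protease with both endopeptidase and exopeptidase activity, was at 11.12, 11.21 and 11.22 on the arrays numbered 1, 11.43, 11.47 and 11.33 on the arrays numbered 2 and 11.45, 11.48 and 11.46 on the arrays numbered 3. Ctss had means of 8.06, 8.38 and 8.50, and on every number its FGFR1OP-RET array was the highest. The mean deviation of number 1 arrays from their group means was -0.27 for Gla, -0.26 for Lipa, -0.25 for Ctss, -0.20 for Lamp2 and -0.17 for Ctsb.

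**Figure D3:**
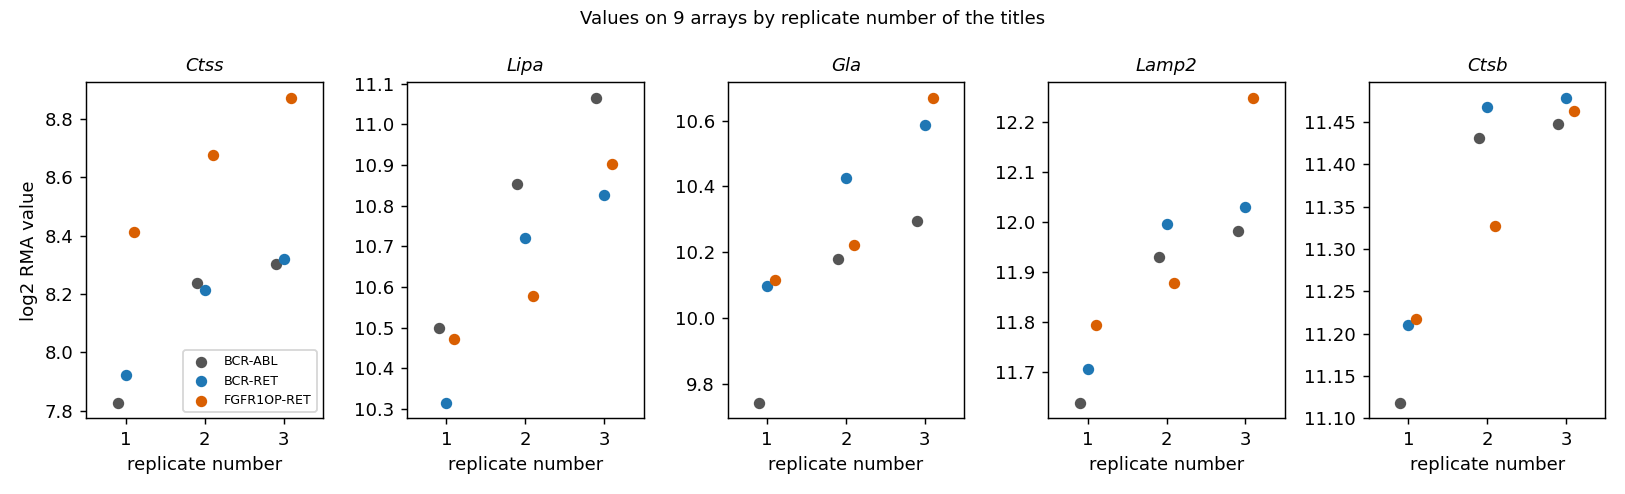
Log2 RMA values (vertical axes, each with its own range that does not start at 0) of the 5 members called for replicate number, by the number in the titles (horizontal axis) and coloured by fusion. The 3 arrays numbered 1 are the lowest of their fusion in every panel.

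The pattern was shared well beyond the 5. On all 3 arrays numbered 1, 23 of 36 members lay below their group mean (63.9%), against 22.9% of all genes, and 5 lay above it (13.9%, against 18.7%). The number 1 array was the lowest of its group in all 3 groups for 17 members (47.2%), against 13.5% of genes. On the arrays numbered 3, 18 of 36 lay above their group mean (50%, against 19%) and 3 below (8.33%, against 20.4%). The number 2 arrays had 9 above (25%, against 12.7%) and 2 below (5.56%, against 8.8%). The median deviation of the members was -0.07, -0.06 and -0.06 on the number 1 arrays of BCR-ABL, BCR-RET and FGFR1OP-RET, where that of all genes lay between -0.01 and 0.01. FGFR1OP-RET replicate 2 differed from the other number 2 arrays, with 13 of 36 members above the group mean, against 27 and 29 for BCR-ABL and BCR-RET. All genes had 56% above it on that array, and 47.3% and 53.6% on the other arrays numbered 2.

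**Figure D4:**
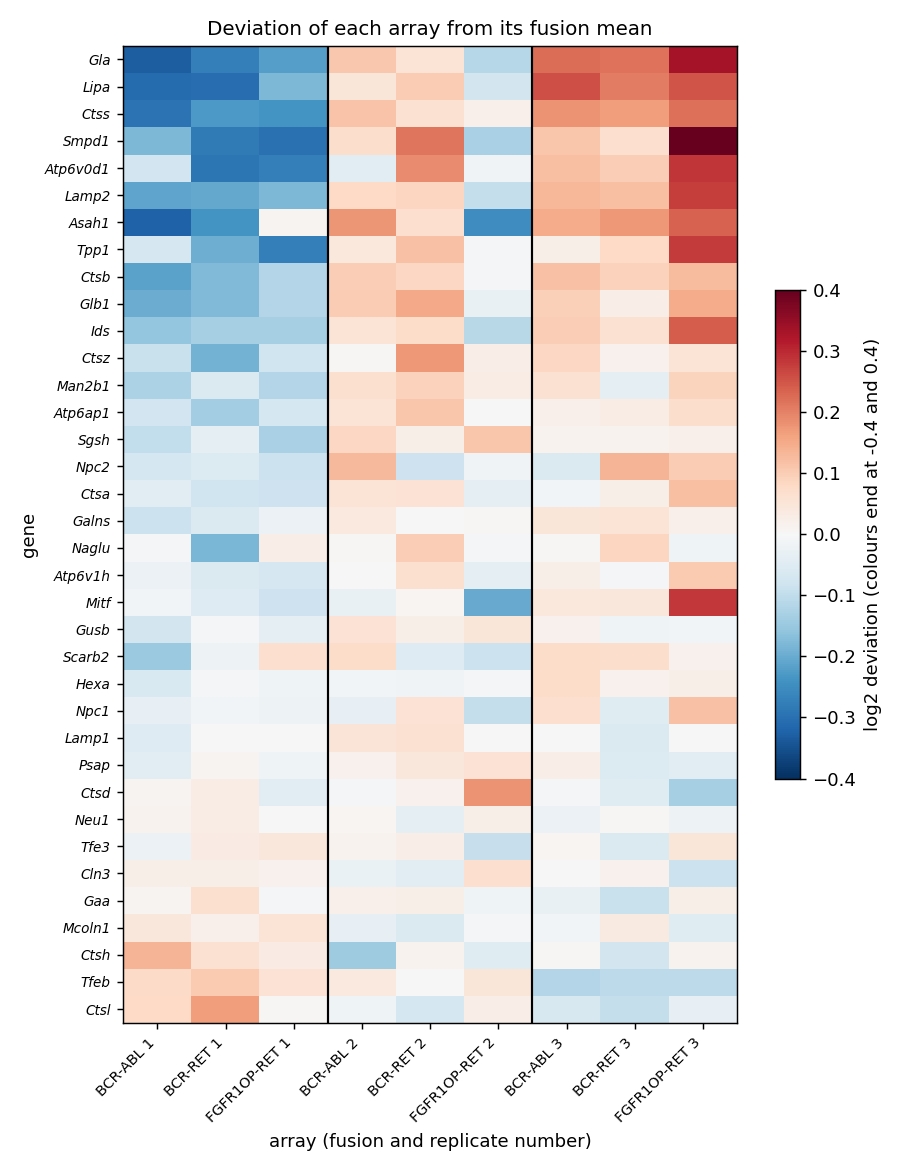
Log2 deviation of each array (columns, ordered by replicate number and then by fusion) from the mean of its fusion for the 36 members (rows, ordered by the mean deviation of the number 1 arrays); blue is below and red above the fusion mean. The number 1 columns are blue for 23 members on all 3 arrays, from Gla down, while Tfeb, Ctsl, Ctsh, Mcoln1 and Cln3 near the bottom lie above the mean on all 3.

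The members did not all follow the number. Besides the 5 called, the number 1 arrays were lower by 0.25 on average for Smpd1, by 0.21 for Atp6v0d1, by 0.18 for Tpp1 and Asah1, by 0.16 for Glb1 and by 0.14 for Ids, with adjusted p of 0.0913, 0.0788, 0.119, 0.211, 0.0795 and 0.114. Tfeb went the other way, with the number 1 arrays 0.08 above and the number 3 arrays 0.11 below the group means (adjusted p = 0.104). Neu1, Tfe3, Cln3, Gaa, Lamp1, Psap, Hexa and Npc1 had number means within 0.07 of each other, and Neu1 the smallest such span of the 36 (0.03). The 5 members above the group mean on all 3 number 1 arrays were Tfeb, Ctsl, Ctsh, Mcoln1 and Cln3.

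The count of members called for replicate number depended on single arrays. It was 0 without BCR-ABL replicate 1 or BCR-RET replicate 1, 1 without BCR-RET replicate 3, 2 without FGFR1OP-RET replicate 3 and 3 without BCR-ABL replicate 2 or 3, BCR-RET replicate 2 or FGFR1OP-RET replicate 1. Without FGFR1OP-RET replicate 2 it was 9. Over all genes the count was 887 with all arrays. It was 180 without BCR-ABL replicate 1, 43 without BCR-RET replicate 1 and 170 without BCR-RET replicate 3. Without FGFR1OP-RET replicate 1, 2 or 3 it was 172, 1501 and 259. Without BCR-ABL replicate 2 or 3 it was 523 and 500, and without BCR-RET replicate 2 it was 638. Ctss held in 7 of these 9 fits, Lipa in 6, Gla in 5, and Lamp2 and Ctsb in 1, with highest adjusted p of 0.0745, 0.112, 0.112, 0.227 and 0.246, each without BCR-RET replicate 1. With the arrays centred on their medians the count of members was 3 (732 over all genes), with Lamp2 at 0.0501 and Ctsb at 0.0574.

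Related genes passed the test of the number as well. Of the 140, 17 were called for replicate number (12.1%), against 4.45% of all genes, including 4 of 15 further proton pump subunits, 6 of 32 membrane proteins and transporters, 3 of 29 hydrolases and 4 of 25 autophagy genes. None of 20 enzyme sorting genes and none of 20 genes of TFEB regulation and nutrient sensing was called in limma, with 7 and 6 at an unadjusted p under 0.05. All genes had a share of 19.1% at that unadjusted p. Among the cell type markers, 0 of 14 monocyte and macrophage genes, 3 of 11 granulocyte genes, 2 of 10 mast cell and basophil genes and 0 of 10 B lymphoid genes were called, with 2, 6, 3 and 1 at an unadjusted p under 0.05. Their part in the number differences of the members was not tested.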

How the data were processed

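Total RNA of BaF3 cells was labelled with biotin and hybridised to 9 arrays, 3 for each fusion, with group and replicate number taken from the sample titles. The log2 values, 1 for each probe set on each array, are as the authors deposited them, and the submitters' processing notes name RMA and Affymetrix Expression Console. RMA corrects background, equalises the array distributions and summarises each probe set's probes. A change of most transcripts one way would therefore not be seen. For the software version and the build, the sources used here give nothing. Over all probe sets the log2 values ran from 2.66 to 14.92 and array medians from 8.01 to 8.04. Where arrays were centred, their medians over the 19938 tested genes were used instead. Of 35557 probe sets, 21789 had 1 symbol in GEO's platform annotation, 1621 had several and 12147 had none. Those with 1 were used, and for 999 genes with more than 1 such probe set the highest mean was kept. Symbols were checked through Entrez identifiers against RefSeq's gene table, which changed 0 of them. In 872 genes, none of them a member, 1 value was repeated on all 3 arrays of some group.

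Comparisons were fitted over 19938 genes with lmFit and eBayes of limma 3.58.1, run in R 4.3.3, all 9 arrays sharing 1 estimate of the spread, with Benjamini-Hochberg adjustment over all genes and a threshold of 0.05. Adjusted p-values come from these fits, and ± gives the SD of 3 arrays. The replicate number was tested with an F test in a fit with fusion and number. The number of arrays limits the precision. The code was tested on simulated data. The members, lists and tests were chosen with earlier results of these data known. All members are named; values on every array are given for members that passed a test, for the 10 with the widest span between group means, and for Lamp1, Lamp2, Ctsd, Mcoln1, Tfeb, Tfe3 and Mitf, and other pathway genes are named where they passed. The cell type markers named beside the results were chosen after their values were seen. The replicate number was not in the main fits of the comparisons. It entered as a block in an alternative, run for all 3 comparisons alike. Between BCR-RET and BCR-ABL all 3 correlations of the deviations exceeded 0.1 (0.617, 0.155 and 0.367). That is a hint of pairs from the data and not from the labels. Alternatives changed the probe set rule, a filter on dim genes, the array centring, the variance model, repeated values, the threshold, the block, the groups in the fit and the arrays used.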

Additional observations from a re-analysis of the deposited data

How the results depend on the processing

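In BCR-RET against BCR-ABL the count of members called was 0 in every alternative run. In FGFR1OP-RET against BCR-ABL it was 1, rising to 2 under the replicate block (Neu1 and Ctss, 576 genes in all against 203), 0 without the 3 arrays numbered 1, an alternative chosen after seeing the data, and 0 to 1 without each array in turn. In BCR-RET against FGFR1OP-RET it was 1, and 4 with the block (Ctss, Mcoln1, Man2b1 and Tfeb, all lower in BCR-RET, 1135 genes against 265), 0 with an intensity trend and robust prior, 0 with only the 2 groups compared, 0 without the 3 arrays numbered 1, and 0 without each array in turn. For the replicate number it was 5 (887 genes in all), 3 with arrays centred on their median (732) and 8 at an adjusted p under 0.1 (1720). It was 0 to 9 without each array in turn (43 to 1501 genes in all). Under the block Ctss had an adjusted p of 8.14e-04 in FGFR1OP-RET against BCR-ABL and 0.00114 in BCR-RET against FGFR1OP-RET. In these comparisons with FGFR1OP-RET the number 2 arrays correlated with r of -0.128 and -0.152, so the numbers were not read as pairs there. In every comparison, BCR-RET against BCR-ABL included, 4 of 6 arrays correlated best with their own number. Signal over background was not used here. The causes of these changes were not tested.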
